A study of Mus musculus with 66 samples.

Results

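The integrated stress response and the unfolded protein response were followed as 1 module of 37 genes in cultured mouse neurons after depletion of chromatin and transcription regulators. The members were named by symbol. They comprise 21 genes of the ATF4 arm (the factors Atf4, Atf3, Atf5, Ddit3, Cebpb and Cebpg, and genes for amino acid supply and stress signalling) and 16 genes of the endoplasmic reticulum (ER) arm (chaperones, disulphide isomerases and degradation factors). All 37 had a row among 30084 gene symbols, and all 37 were among the 16145 genes with enough counts to be tested.

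The integrated stress response lowers general protein synthesis through phosphorylation of the initiation factor eIF2, which at the same time raises translation of ATF4, a transcription factor for amino acid synthesis, amino acid import and stress signalling genes. The unfolded protein response senses misfolded protein in the ER through PERK, IRE1 and ATF6, and the last of these and XBP1 induce chaperones such as BiP (Hspa5) and the machinery that removes misfolded proteins. PERK phosphorylates eIF2, so the arms share a trigger, and neurons use both to match protein synthesis to nutrient and folding state.

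Sequence elements known from these pathways differed in frequency between the arms. Promoter windows from 250 bases before to 50 bases after the gene start (RefSeq, GRCm38.p6) were matched by symbol for 34 of the 37 members. Slc7a5, Manf and Hyou1 had no entry. The letters TGATGNAAN, a form of the element bound by ATF4 with CEBP partners, were searched on both strands. They occurred in 6 of the 20 matched ATF4 arm genes (30%) and in 1 of the 14 matched ER arm genes (7.14%, Herpud1), against 4.5% of the 27025 genes with an entry. The ER stress response element, CCAAT and CCACG separated by 9 bases, occurred on either strand in 6 of 14 ER arm genes (42.9%) and in 0 of 20 ATF4 arm genes, against 0.137% of all genes with an entry. The cyclic AMP response element, TGACGTCA, was in 0 of 20 and 0 of 14, against 2.03% of all genes with an entry. No member held more than 1 of the 3 motifs, so matches of different motifs did not overlap. A match describes the letters only and does not show binding.

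The sites below are shown because each motif was more frequent in 1 arm than over all genes with an entry, though most members of each arm lack it. Each is written 5′ to 3′ on the strand that carries the motif, with the motif in capitals and 15 flanking bases on each side. The first 5 hold TGATGNAAN in ATF4 arm promoters, and Trib3 is the remaining gene with that motif. The window of Slc7a11 holds a second site on the other strand.
Asns, chr6:7693209-7693247, minus strand: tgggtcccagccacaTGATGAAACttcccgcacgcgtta
Atf3, chr1:191183421-191183459, plus strand: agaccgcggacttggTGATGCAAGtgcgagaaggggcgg
Chac1, chr2:119351033-119351071, minus strand: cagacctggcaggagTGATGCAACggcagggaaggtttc
Pycr1, chr11:120643828-120643866, minus strand: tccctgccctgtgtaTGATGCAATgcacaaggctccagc
Slc7a11, chr3:50443656-50443694, minus strand: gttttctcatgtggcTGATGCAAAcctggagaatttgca

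The remaining 6 hold the ER stress response element in ER arm promoters, in genes for chaperones, co-chaperones and a disulphide isomerase. Hsp90b1 has a second site in the same window.
Hspa5, chr2:34772010-34772058, plus strand: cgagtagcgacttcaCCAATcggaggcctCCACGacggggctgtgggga
Hsp90b1, chr10:86705518-86705566, plus strand: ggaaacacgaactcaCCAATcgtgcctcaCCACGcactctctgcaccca
Pdia6, chr12:17266476-17266524, plus strand: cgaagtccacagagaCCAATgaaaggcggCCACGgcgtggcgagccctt
Dnajc3, chr14:118937812-118937860, plus strand: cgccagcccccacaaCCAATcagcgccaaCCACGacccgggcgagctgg
Creld2, chr15:88819505-88819553, minus strand: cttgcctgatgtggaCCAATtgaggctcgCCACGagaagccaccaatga
Calr, chr8:84847060-84847108, plus strand: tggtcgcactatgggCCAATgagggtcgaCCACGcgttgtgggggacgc

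Neurons came from wildtype mouse embryos of stage E16.5, kept apart by sex, and every culture was wildtype. They received lentivirus with a short hairpin RNA (shRNA, a transcript that directs cleavage of a matching mRNA) or no virus. The hairpins were nontargeting or directed at 1 of the chromatin proteins Ash1l, Chd8, Dnmt3a, Kdm6b, Kmt2c, Mbd5 and Setd5, the Mediator subunit Med13l or the transcription factor Tbr1. The virus stayed until day 6 of culture and RNA was taken on day 10, at doses that the labels give as leaving about 50% of each target. Each of the 11 treatments had 3 libraries per sex, 66 in all. The labels speak of triplicate wells and name no separate litters or cultures, so p-values measure the spread between these samples, which may be technical. The sequence of each hairpin, and whether more than 1 was used per target, is not given in the sources used here, so effects other than on the target cannot be told apart from it.

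Total counts ran from 13759741 to 66558546 per library. Targets were at 22.3% to 54.3% of the nontargeting mean in all 18 knockdown groups. Among males, the library labelled replicate 1 of Setd5 shRNA had Setd5 at 141 CPM (library-scaled counts) and that labelled replicate 1 of Kdm6b shRNA at 44.9 CPM, while their Kdm6b levels were 23.1 and 39.9 CPM. Both go against their labels, and the edgeR counts of genes called for Setd5 and Kdm6b are given with and without them. The library labelled Setd5 shRNA female replicate 1 had 612 counts of Ddx3y and 574 of Kdm5d but 0 of Uty, against at most 12, 2 and 4 in other female libraries. Neuron markers (5 genes) summed to 3558 to 6019 CPM. The 6 microglia markers summed to at most 3.87 CPM, with P2ry12, Tmem119 and C1qa at 0 counts in 46, 37 and 35 libraries. The 8 astrocyte markers summed to 233 to 633 CPM, and each was above 0 in all 66 libraries. In such bulk RNA fewer cells of a type and less RNA per cell cannot be told apart.

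In each knockdown the 6 shRNA libraries were compared with the 6 nontargeting libraries as the mean of the male and the female difference. A gene passed at an adjusted p under 0.05 (edgeR quasi-likelihood test, Benjamini-Hochberg over all genes). Without the replicate number in the model, in none of the 9 comparisons was the share of members that passed above the share of all genes. This depends on the model. With the replicate number in it, as given below, the share of members was above that of all genes for Chd8, Ash1l and, by a small margin, Tbr1 shRNA. For Ash1l the numbers did not pair the libraries in both sexes. With Chd8 shRNA 5 of 37 members passed (13.5%) and all 5 fell, against 22.3% of all genes. Med13l shRNA gave 4 of 37 (10.8%), 1 higher and 3 lower, against 24.1%. Ash1l shRNA gave 2 of 37 (5.41%), both lower, against 6.16%. DESeq2 gave 5, 4 and 6 members in these comparisons. The share of all genes by DESeq2 is not given, so its counts, here and below, describe the members alone. Single libraries moved the smaller counts. The count for Ash1l was 1 without Ash1l shRNA female replicate 1 or 3, Ash1l shRNA male replicate 3 or nontargeting male replicate 1 or 2, and 5 without Ash1l shRNA female replicate 2. The count for Med13l was 1 without Med13l shRNA female replicate 1, and 2 without Med13l shRNA female replicate 3, Med13l shRNA male replicate 1 or 3, nontargeting female replicate 2 or 3, or nontargeting male replicate 1 or 2.

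No member passed in the other 6 comparisons by edgeR. The share of all genes that passed there was 1.40% for Dnmt3a, 0.966% for Kdm6b, 0.694% for Kmt2c, 0.663% for Mbd5, 5.30% for Setd5 and 1.33% for Tbr1. At an unadjusted p under 0.05 these comparisons gave 2, 2, 1, 0, 3 and 1 members in the same order. The share of all genes at this cut-off is not given for them, nor for nontargeting against no virus below. Without the 2 male libraries against their labels, Setd5 had 3 such members and Kdm6b 1, against 3202 and 1679 of 16452 genes. DESeq2 called 1 member for Dnmt3a, Dnajb9, and 0 for the other 5. Leaving out 1 library gave calls in 4 of the 6. Dnajb9 passed for Dnmt3a without Dnmt3a shRNA female replicate 2 or nontargeting female replicate 3, and for Setd5 without Setd5 shRNA male replicate 1. Atf5 and Phgdh passed for Kdm6b without Kdm6b shRNA female replicate 3, and Edem1 for Tbr1 without Tbr1 shRNA female replicate 2. The nontargeting shRNA against no virus gave 0 of 37 members and 0% of all genes, with 0 members at an unadjusted p under 0.05 and 0 by DESeq2. Its estimates ran from -0.10 to 0.37 on the log2 scale, with a median of 0.04.

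**Figure D1:**
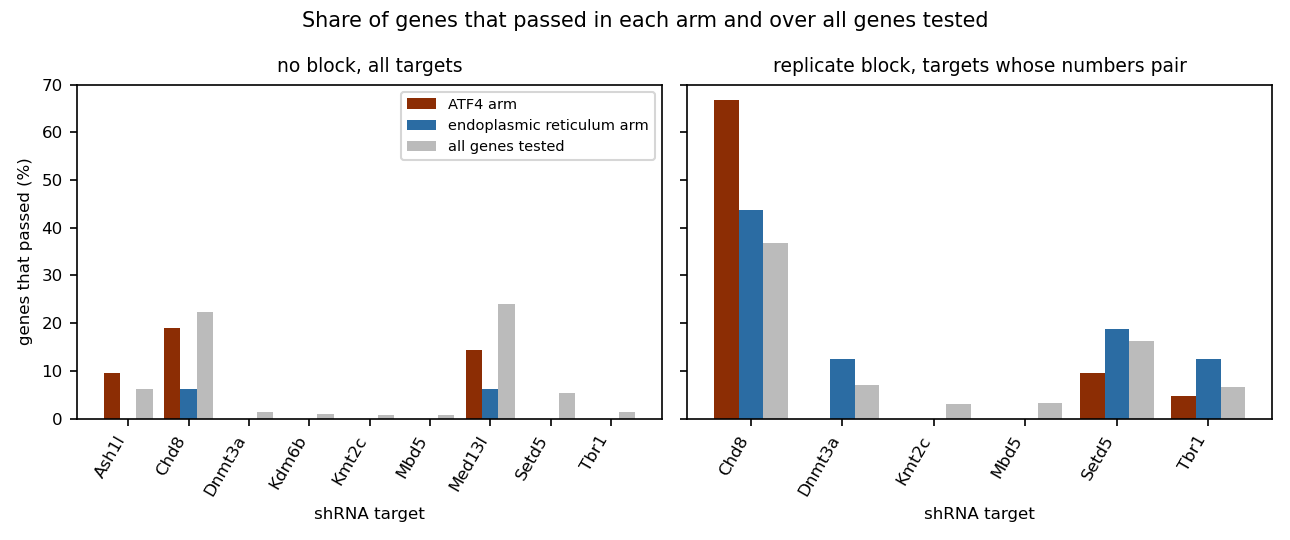
Bars give the percentage of genes that passed for each shRNA target (x axis), for the 21 ATF4 arm genes, the 16 endoplasmic reticulum arm genes and all 16145 genes tested. Left, without the replicate number in the model; right, with it, for the 6 targets whose numbers pair the libraries. On the left, the Chd8 and Med13l bars of both arms lie below the bar of all genes, which is at 22.3% and 24.1%.

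Of the 3 comparisons with calls, 8 members account for all 11 of them. Atf5 passed in all 3, Slc7a5 with Chd8 and Med13l shRNA, and Aldh18a1, Edem1, Ddit4, Phgdh, Sel1l and Mthfd2 in 1 each. Of these, 7 had a promoter entry, and none of those 7 windows held TGATGNAAN or the ER stress response element. The genes whose sites are printed above passed in none of the 9 comparisons in this model. Some of them passed for Chd8 with the replicate number in the model, as given below. Most members of each arm lack these motifs, and whether calls differ with a motif was not tested.

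**Figure D2:**
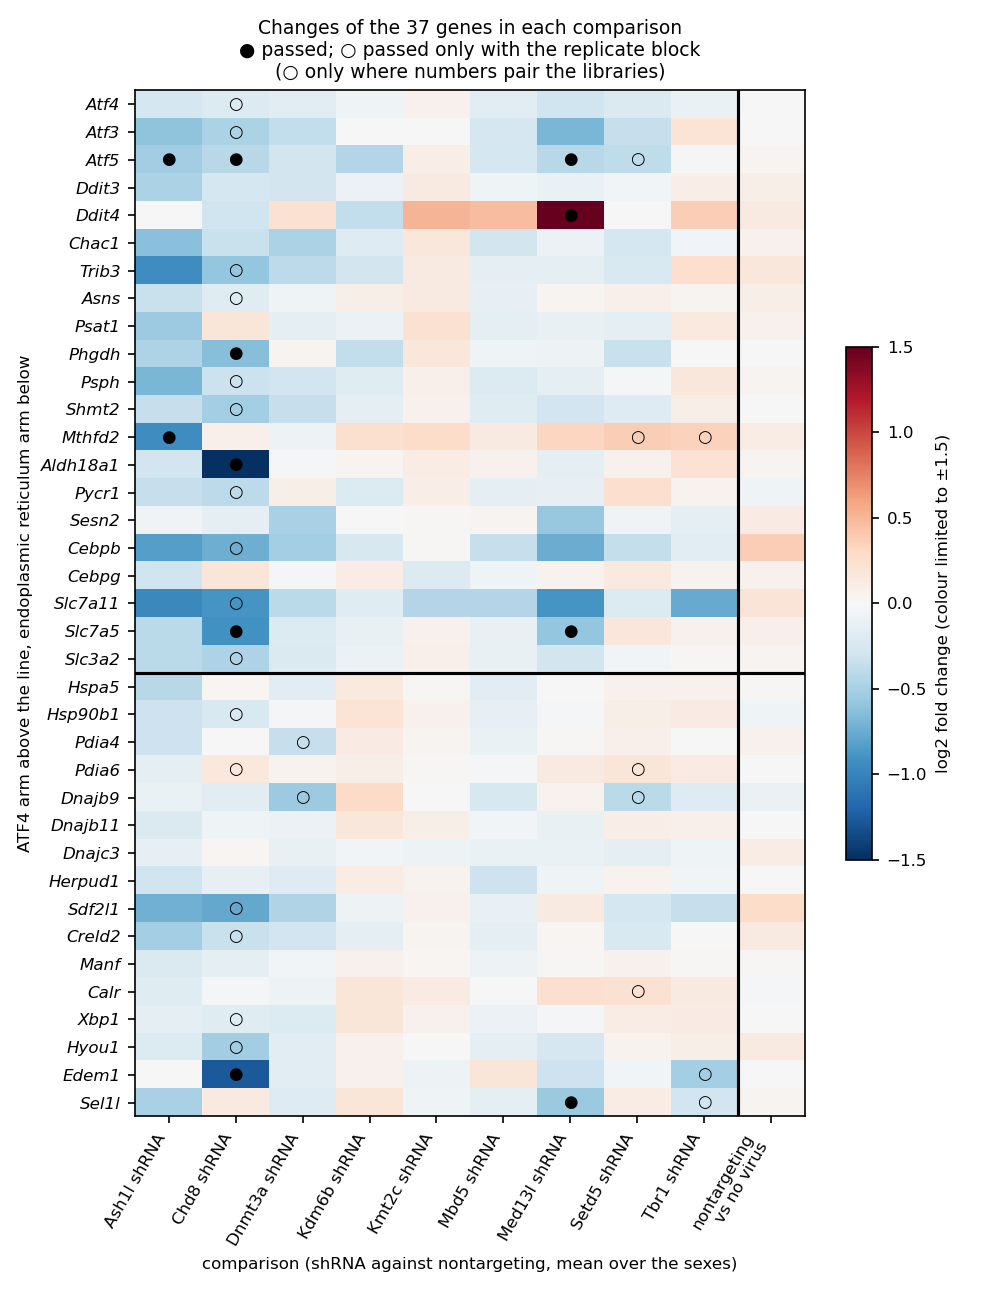
Colour gives the log2 fold change of each of the 37 members (rows, ATF4 arm above the line) in each shRNA comparison and in nontargeting against no virus (columns). Filled circles mark the 11 member calls without the replicate number in the model, and open circles calls made only with it; the deepest blue cells include Aldh18a1 and Edem1 with Chd8 shRNA and the deepest red is Ddit4 with Med13l shRNA.

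Among the transcription factors, Atf4 itself did not pass in any of the 9 comparisons without the replicate number in the model. Its level had a lowest, median and highest library of 312, 381 and 408 CPM with nontargeting shRNA. The Med13l shRNA libraries, with its estimate furthest from 0 when all libraries are used, had 206, 311 and 400 CPM. These ranges overlapped, and the log2 difference was -0.30 (SE 0.17, edgeR adjusted p = 0.203). Over the 9 knockdowns the estimate ran from -0.30 to 0.07 with all libraries. Without the male libraries against their labels, Atf4 was at -0.33 with Setd5 shRNA (SE 0.18, edgeR adjusted p = 0.312) and did not pass.

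Ddit3 encodes CHOP, the factor tied to death under prolonged stress. It had 27.3, 31.3 and 38.7 CPM (lowest, median, highest) with nontargeting shRNA and 13.9, 23.8 and 29.0 CPM with Ash1l shRNA. The ranges overlapped by a small margin, and the difference of -0.47 (SE 0.22, edgeR adjusted p = 0.245) did not pass. With every other shRNA it lay between -0.27 and 0.13.

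Atf5, an ATF4-related factor that also serves the mitochondrial stress response, was the member called most often. Nontargeting libraries had 53.7, 59.7 and 67.9 CPM (lowest, median, highest), and no virus libraries 51.4, 60.2 and 69.6. Ash1l shRNA libraries had 30.4, 42.4 and 53.8 CPM, so a single library was above the lowest nontargeting library, and within each sex the groups did not overlap. Atf5 fell by 0.52 on the log2 scale (SE 0.15, edgeR adjusted p = 0.0307). With Chd8 shRNA it fell by 0.42 (SE 0.15, edgeR adjusted p = 0.0396), from libraries of 34.0, 46.5 and 56.7 CPM. With Med13l shRNA it fell by 0.42 (SE 0.15, edgeR adjusted p = 0.0425), from libraries of 34.2, 44.6 and 58.8 CPM. In both of these the highest library lay inside the nontargeting range.

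These Atf5 calls rest on few libraries. The Ash1l call was lost without nontargeting female replicate 1 or 3, nontargeting male replicate 1 or 2, Ash1l shRNA female replicate 1 or 3, or Ash1l shRNA male replicate 3, with an adjusted p of at most 0.136. The Chd8 call was lost without the same 4 nontargeting libraries, Chd8 shRNA female replicate 1 or 3, or male replicate 3 (at most 0.158). The Med13l call was lost without nontargeting male replicate 1 or 2, any nontargeting female library, Med13l shRNA female replicate 1 or 3, or male replicate 1 or 3 (at most 0.144). Every one of these kept the lower direction, with estimates from -0.33 to -0.52.

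Of the amino acid synthesis genes, Aldh18a1 and Phgdh fell with Chd8 shRNA. Aldh18a1 encodes the first enzyme of proline synthesis from glutamate, and had the strongest call of the ATF4 arm in that comparison. Nontargeting males had 92.0, 94.1 and 98.5 CPM (replicates 1, 2 and 3) and females 66.5, 106 and 89.3. Chd8 shRNA males had 34.7, 35.4 and 23.2 CPM and females 22, 42.9 and 37. The highest Chd8 shRNA library was below the lowest nontargeting library. Aldh18a1 fell by 1.49 on the log2 scale (SE 0.17, edgeR adjusted p = 3.2e-09), and the call held without any 1 of the 12 libraries. In the other 8 knockdowns its mean stayed between 74.7 and 106 CPM against 91.1 ± 13.4 CPM (SD, n = 6) with nontargeting shRNA.

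Phgdh encodes the first enzyme of serine synthesis and is enriched in astrocytes. Nontargeting libraries had 25.8, 29.0 and 33.1 CPM (lowest, median, highest) and Chd8 shRNA libraries 14.9, 19.7 and 22.4, with no overlap. It fell by 0.64 on the log2 scale (SE 0.16, edgeR adjusted p = 0.00194), and the call held without any 1 of the 12 libraries. Ash1l shRNA libraries, at 18.2, 20.8 and 24.6 CPM, did not overlap the nontargeting libraries either, but the difference of -0.46 did not pass (SE 0.16, edgeR adjusted p = 0.0702), though it did by DESeq2 (adjusted p = 0.0425). The summed astrocyte markers were 257 to 388 CPM (median 277) with Chd8 shRNA against 350 to 516 (median 405) with nontargeting shRNA, and 2 of the 8 were called lower. Their part in the Phgdh result was not tested. With Ash1l shRNA they summed to 342 to 633 CPM (median 412) and 0 of 8 were called.

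Mthfd2, the mitochondrial enzyme of one-carbon metabolism, passed in the Ash1l comparison alone without the replicate number in the model. Nontargeting males had 44.4, 43.1 and 39.0 CPM and females 33.6, 52.0 and 39.0. Ash1l shRNA males had 23.8, 21.4 and 13.7 CPM and females 15.3, 35.9 and 22.6. Female replicate 2 of the Ash1l group exceeded the lowest nontargeting library, and the other 5 lay below all of them. The fall was 0.93 on the log2 scale (SE 0.21, edgeR adjusted p = 0.00303) and held without any 1 of the 12 libraries. With Chd8 shRNA, where Aldh18a1 and Phgdh fell, Mthfd2 was at 44.2 ± 11.8 CPM (SD, n = 6) against 41.9 ± 6.23 CPM, which gave 0.08 as the log2 difference (SE 0.21, edgeR adjusted p = 0.850).

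Slc7a5 is the light chain of the large neutral amino acid transporter, paired with Slc3a2. Nontargeting males had 203, 200 and 210 CPM and females 145, 257 and 192. Chd8 shRNA males had 106, 100 and 87.4 CPM and females 55.7, 183 and 113. Males did not overlap, and among females only replicate 2 of the Chd8 group lay inside the nontargeting range. Slc7a5 fell by 0.91 on the log2 scale (SE 0.22, edgeR adjusted p = 0.00162), and the call held without any 1 of the 12 libraries. Med13l shRNA males had 135, 131 and 116 CPM and females 86.0, 208 and 133. The fall was 0.58 (SE 0.22, edgeR adjusted p = 0.0485). This call held only without nontargeting female replicate 1 or Med13l shRNA female replicate 2. It was lost on leaving out any other of the 12, with an adjusted p of 0.0651 to 0.197.

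Ddit4 encodes REDD1, an inhibitor of mTORC1 that hypoxia, glucocorticoids and ATF4 induce. It was the only member that rose in any comparison of this model. Nontargeting males had 119, 181 and 114 CPM and females 81.5, 80.1 and 176. Med13l shRNA males had 420, 405 and 486 CPM and females 631, 212 and 446. All 6 exceeded the highest nontargeting library, and female replicate 2 was the lowest of them. Ddit4 rose by 1.80 on the log2 scale (SE 0.26, edgeR adjusted p = 4.5e-07), and the call held without any 1 of the 12 libraries. With the other 8 shRNAs its mean was 96.3 to 178 CPM against 125 ± 44.3 CPM (SD, n = 6) with nontargeting shRNA, and no difference passed. Most of the ATF4 arm did not share this direction with Med13l shRNA. Of its 21 estimates, that of Ddit4 included, 17 were below 0, and the median was -0.14. The share of all genes below 0 is not given for this comparison, so the count describes the members alone.

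In the ER arm, Hspa5 (BiP), the chaperone that keeps the sensors inactive, had 503, 585 and 724 CPM (lowest, median, highest) with nontargeting shRNA. Ash1l shRNA libraries had 304, 484 and 524 CPM, an overlapping range, and the difference of -0.42 did not pass (SE 0.17, edgeR adjusted p = 0.145). The other 8 estimates ran from -0.17 to 0.15. Xbp1, whose mRNA is spliced by IRE1 to encode the active factor, had 114, 130 and 146 CPM with nontargeting shRNA and 86.1, 112 and 150 CPM with Dnmt3a shRNA. That difference of -0.21 (SE 0.13, edgeR adjusted p = 0.686) was its furthest below 0. Gene counts do not separate spliced from unspliced Xbp1, so the activity of IRE1 was not measured.

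Edem1, Sel1l and Herpud1 act in ER-associated degradation. Edem1 passed with Chd8 shRNA, Sel1l with Med13l shRNA and Herpud1 in no comparison of this model. Edem1 encodes a mannosidase-like protein that hands misfolded glycoproteins to degradation. Nontargeting males had 24.9, 24.1 and 28.0 CPM and females 23.5, 32.3 and 25.7. Chd8 shRNA males had 10.3, 10.2 and 11.8 CPM and females 7.53, 15 and 11.4. The groups did not overlap, and Edem1 fell by 1.26 on the log2 scale (SE 0.16, edgeR adjusted p = 1.4e-08), a call that held without any 1 of the 12 libraries. With Tbr1 shRNA it was at 18.6 ± 4.78 CPM (SD, n = 6), and the difference of -0.51 did not pass (SE 0.15, edgeR adjusted p = 0.0890).

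Sel1l, the adaptor of the ubiquitin ligase HRD1 in the same process, was at 197 ± 19.0 CPM (SD, n = 6) with Chd8 shRNA against 179 ± 40.3 CPM, which gave 0.13 as the log2 difference (SE 0.16, edgeR adjusted p = 0.626). Med13l shRNA males had 117, 126 and 131 CPM and females 71.8, 175 and 110, while nontargeting males had 189, 171 and 193 and females 129, 245 and 149. Males did not overlap, and females did. Sel1l fell by 0.56 on the log2 scale (SE 0.16, edgeR adjusted p = 0.00875). The call was lost without nontargeting female replicate 2 (-0.38, adjusted p = 0.0946) or Med13l shRNA female replicate 1 (-0.42, adjusted p = 0.0688).

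Dnajb9 encodes ERdj4, a BiP co-chaperone that is a target of XBP1, and is described because other fits called it, a choice made after its values were seen. Nontargeting males had 58.2, 43.0 and 42.2 CPM and females 53.5, 58.1 and 41.1. Dnmt3a shRNA males had 31.8, 32.3 and 31.9 CPM and females 32.5, 45.2 and 29.6. Of these only female replicate 2 lay inside the nontargeting range. The log2 difference was -0.54 (SE 0.15, edgeR adjusted p = 0.0510) and did not pass.

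With Setd5 shRNA, Dnajb9 was at 58.2, 34.0 and 30.5 CPM in males and 35.3, 38.2 and 27.7 in females. The 58.2 CPM belonged to the library labelled Setd5 shRNA male replicate 1, which goes against its label, and the other 5 were below every nontargeting library. With that library the difference was -0.41 (SE 0.15, edgeR adjusted p = 0.106). Without it and the library labelled Kdm6b shRNA male replicate 1, Dnajb9 fell by 0.58 (SE 0.15, edgeR adjusted p = 0.00973), and it was the only member of 37 to pass for Setd5, against 7.43% of all genes. For Kdm6b 0 of 37 passed without the same libraries, against 1.26% of all genes. Dnmt3a and Setd5 shRNA were compared with the same nontargeting libraries.

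**Figure D3:**
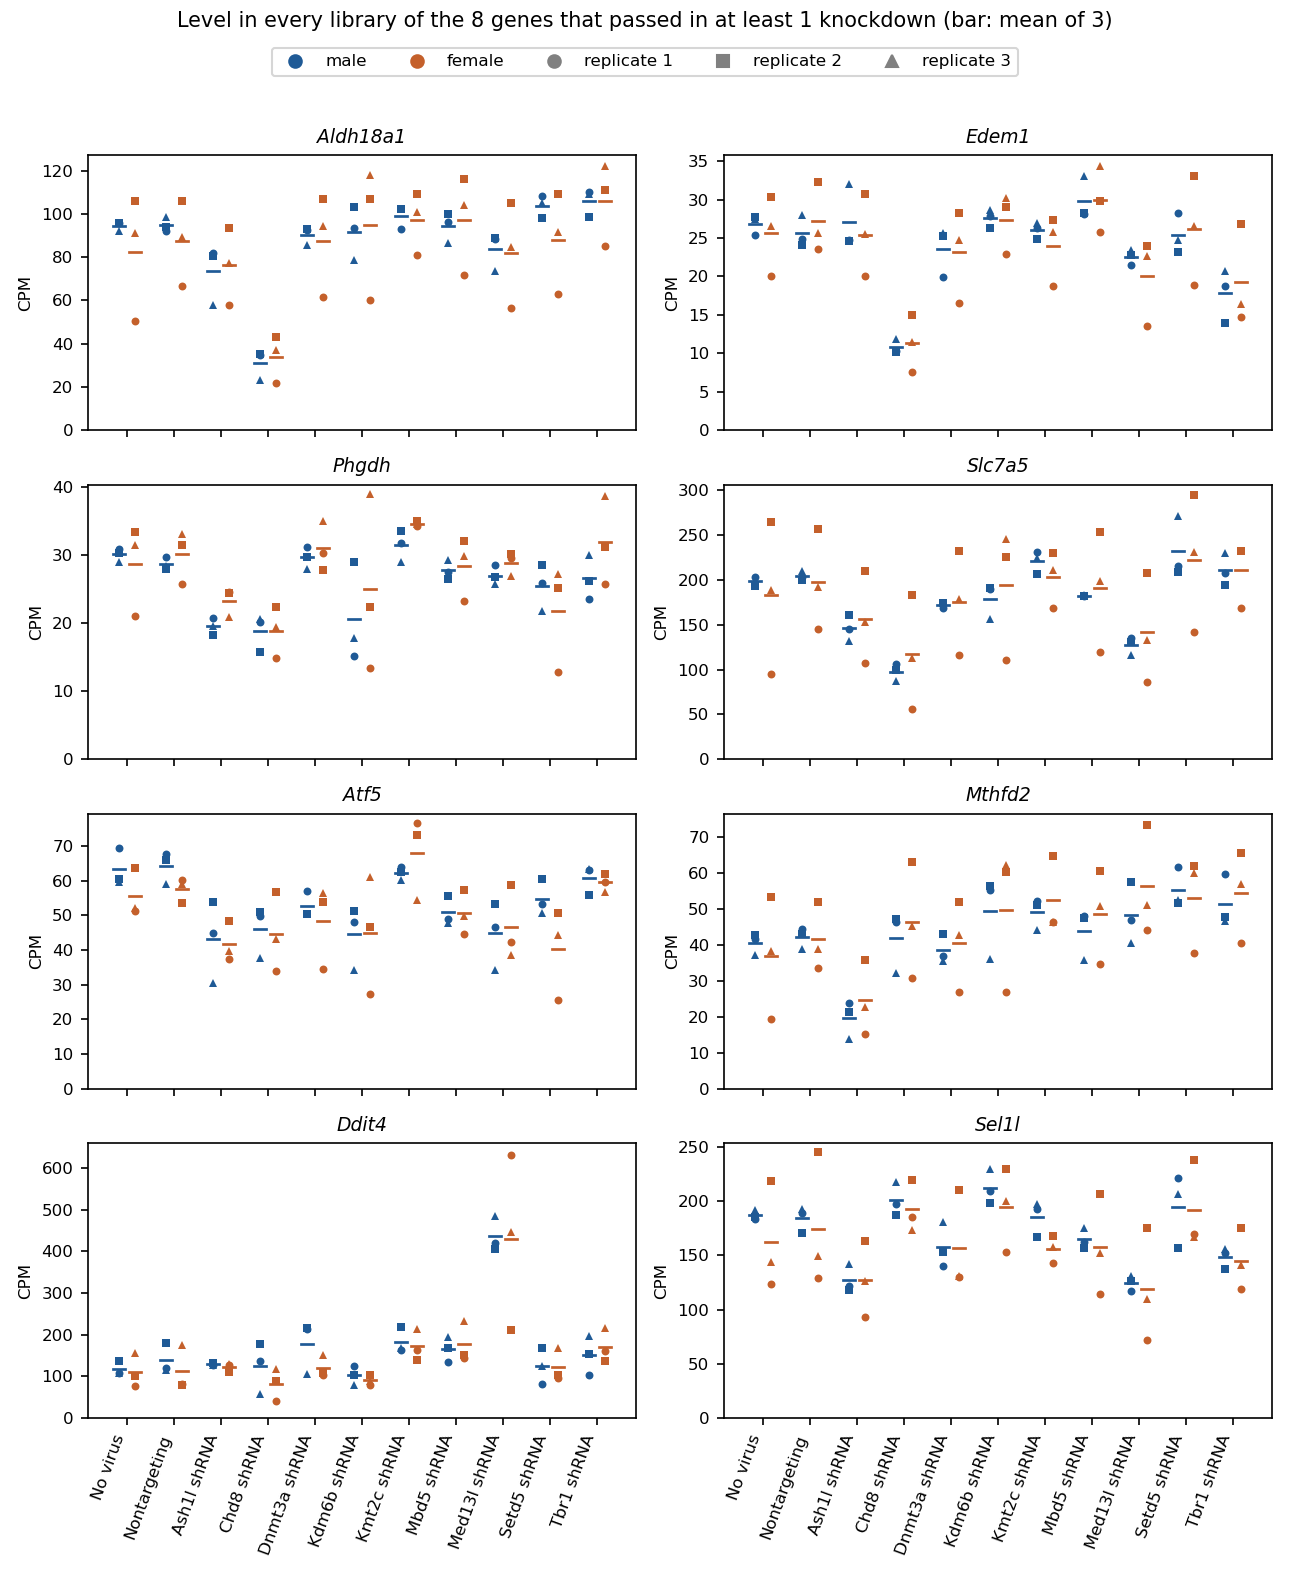
Each panel gives the CPM (y axis, from 0) of 1 of the 8 members that passed in at least 1 knockdown, in every library of the 11 treatments (x axis). Blue marks males, orange females, the symbol shape the replicate number, and the bar the mean of 3; Aldh18a1 and Edem1 are low in all 6 Chd8 shRNA libraries and Ddit4 high in all 6 Med13l shRNA libraries, at 212 CPM or more.

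The direction of the estimates differed between knockdowns. With Ash1l shRNA 36 of 37 estimates were below 0 (97.3%), with a median of -0.34, against 47.7% and a median of 0.01 over all genes tested. The ATF4 arm median was -0.46 and the ER arm median -0.22. With Chd8 shRNA 30 of 37 were below 0 (median -0.26), with Dnmt3a 33 (median -0.19) and with Mbd5 32 (median -0.12). With Kmt2c shRNA only 5 of 37 were below 0 (median 0.07), and with Tbr1 shRNA 14 (median 0.05). Kdm6b shRNA split the arms, with 16 of 21 ATF4 arm estimates below 0 (median -0.11) and 3 of 16 ER arm estimates (median 0.12). Without the male libraries against their labels these counts were the same, with medians of -0.10 and 0.07. With Setd5 shRNA 20 of 37 were below 0 (median -0.02), and 22 (median -0.03) without those libraries. In that fit 8372 of 16452 genes were below 0 for Setd5 and 8273 for Kdm6b. For Chd8, Dnmt3a, Mbd5, Kmt2c and Tbr1 shRNA the share of all genes is not given, so their counts describe the members alone. All 9 share the nontargeting libraries, and members vary together between libraries, so these counts are descriptions and not independent observations of 37 genes. Summed inhibitory neuron markers were 545 to 833 CPM with Ash1l shRNA against 1018 to 1567 with nontargeting shRNA, with 3 of 5 called lower, and their part in these values was not tested.

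Replicate numbers paired the libraries in both sexes for Chd8, Dnmt3a, Kmt2c, Mbd5, Setd5 and Tbr1 shRNA. For Ash1l, Kdm6b and Med13l they did not, and the counts with the number as a block are given in the closing section. There the share of members for Ash1l was above that of all genes. With the number as a block, the count for Chd8 went from 5 to 21 of 37 (56.8%), against 36.9% of all genes. Of the ATF4 arm 14 of 21 passed and all 14 were lower. Slc7a11, the cystine transporter chain, fell by 0.93 (SE 0.25, adjusted p = 0.00228), Slc3a2 by 0.51 (SE 0.11, adjusted p = 1.0e-04) and Atf4 by 0.24 (SE 0.10, adjusted p = 0.0479). Of the ER arm 7 of 16 passed, with 6 lower and 1 higher. Hyou1, a large ER chaperone, fell by 0.54 (SE 0.10, adjusted p = 8.9e-06), and Sdf2l1, a chaperone cofactor, by 0.82 (SE 0.21, adjusted p = 0.00131). Pdia6, a disulphide isomerase, rose by 0.17 (SE 0.06, adjusted p = 0.0191). Hspa5 was not among them. Of the ATF4 arm genes with TGATGNAAN, Atf3, Trib3, Asns, Pycr1 and Slc7a11 fell in this model and Chac1 did not pass. Of those with the ER stress response element, Hsp90b1 and Creld2 fell, Pdia6 rose, and Hspa5, Dnajc3 and Calr did not pass. These are edgeR values, as are those of the next paragraph. Without Chd8 shRNA female replicate 2, the count without the block was 9.

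The same block gave 2 of 37 members for Dnmt3a, against 6.97% of all genes: Dnajb9, a co-chaperone, fell by 0.54 (SE 0.12, adjusted p = 0.00185) and Pdia4, a disulphide isomerase, by 0.35 (SE 0.08, adjusted p = 0.00321). For Tbr1 it gave 3, against 6.57%. Edem1 fell by 0.52 (SE 0.09, adjusted p = 2.1e-05) and Sel1l by 0.27 (SE 0.08, adjusted p = 0.0255), while Mthfd2 rose by 0.33 (SE 0.10, adjusted p = 0.0292). For Setd5 it gave 5, against 16.2%, with Atf5 and Dnajb9 lower and Mthfd2, Pdia6 and Calr higher. Without the male libraries against their labels the block gave 6, against 20.3%: the same 5 in the same directions and Atf4, which fell by 0.30 (SE 0.10, adjusted p = 0.0279). For Kmt2c and Mbd5 it gave 0 of 37, against 2.97% and 3.32%.

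The knockdowns were also compared with each other without any control library, as a test of whether the 9 shRNA groups differ. Of the members 18 of 37 passed, 10 of 21 in the ATF4 arm and 8 of 16 in the ER arm, against 58.4% of all genes. The smallest adjusted p belonged to Ddit4 (5.9e-10), Aldh18a1 (2.4e-09) and Edem1 (5.4e-09), and Atf4, Ddit3, Hspa5 and Xbp1 did not pass. DESeq2 called 20.

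No member had an effect that differed between male and female cultures, in any of the 9 knockdowns, by edgeR's test of the interaction. There were 0 members at an unadjusted p under 0.05 and 0 by DESeq2 in each. Only 0.409% (Mbd5) to 2.72% (Setd5) of all genes had an unadjusted p under 0.05 in this test. A count of 0 among 37 members is therefore near what all genes gave. Of all genes, 0.0186% passed for Setd5 and 0% for the other 8. The male minus female estimates were negative for all 37 members with Tbr1 shRNA (-0.80 to -0.03) and for 35 with Med13l shRNA, against 48.5% and 54.9% of all genes. The smallest unadjusted p of a member belonged to Pycr1, the last enzyme of proline synthesis, with Setd5 shRNA, at -0.05 in males and 0.55 in females (difference -0.60, SE 0.34, edgeR adjusted p = 1). Setd5 shRNA females had 28.3, 16.4 and 20.8 CPM of Pycr1 (replicates 1, 2 and 3), and nontargeting females 15.1, 12.6 and 17.4. The highest of these, Setd5 shRNA female replicate 1, is the library with the Ddx3y and Kdm5d counts given above. Without the male libraries against their labels the Pycr1 difference was -0.56 (SE 0.37), and 0 members passed for Setd5 or Kdm6b. A standard error of this size leaves differences of this order undetected.

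The members varied between libraries of a single group. The median within-group SD over members was 0.41 on the log2 CPM scale in the ATF4 arm and 0.27 in the ER arm, against 0.30 over all genes tested. The arms moved together, with a Pearson r of 0.94 between their mean levels over 66 libraries, each as the deviation from its group mean. All 66 points share their 22 group means and their library's scaling, so this is a description.

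These deviations followed the replicate number, a comparison chosen after the values were seen. Female replicate 1 had the lowest ATF4 arm and the lowest ER arm level of its group in 11 of 11 groups, by a mean of -0.53 and -0.28 against the group mean. Female replicate 2 was the highest in 10 of 11 groups for each arm (mean 0.35 and 0.22). Among males replicate 3 was the lowest in 9 of 11 groups for the ATF4 arm and 10 of 11 for the ER arm (mean -0.24 and -0.15). No virus and nontargeting libraries took part in this: the ATF4 arm level of no virus female replicate 1 was -0.74 relative to the nontargeting mean, and that of replicate 2 was 0.32.

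**Figure D4:**
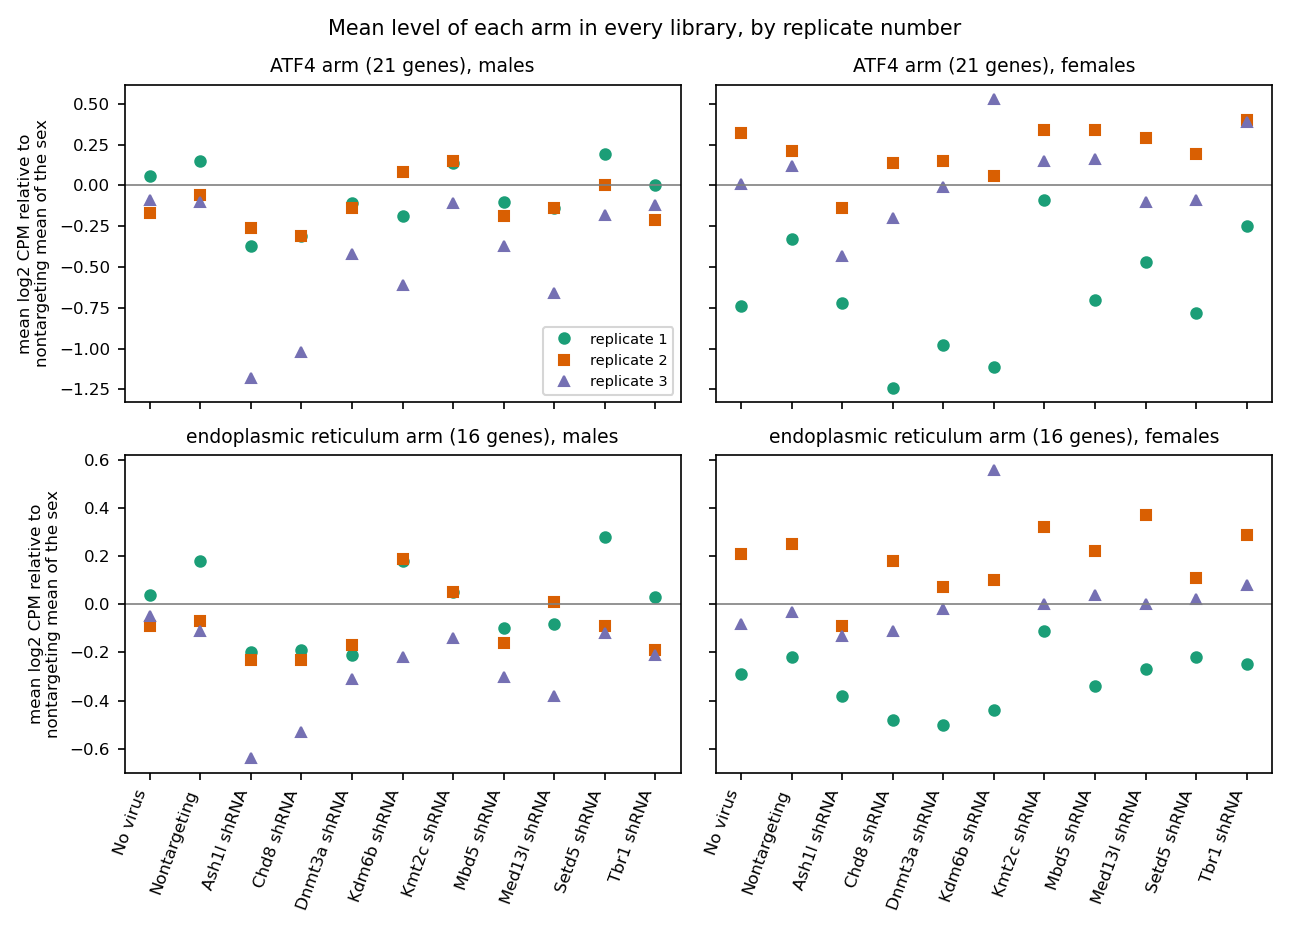
Each panel gives the mean log2 CPM of the genes of 1 arm relative to the nontargeting mean of the same sex (y axis), in each library of the 11 treatments (x axis), with colour and shape for the replicate number. Female replicate 1 is the lowest point of its group in all 11 groups in both arms, and male replicate 3 in 9 of 11 for the ATF4 arm and 10 of 11 for the endoplasmic reticulum arm.

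In the model with the replicate number, 36 of 37 members differed between female numbers, against 72.6% of all genes, with Hsp90b1 the exception (edgeR adjusted p = 0.0528). Among males 25 of 37 differed, 12 of 21 in the ATF4 arm and 13 of 16 in the ER arm, against 28.7% of all genes. The ATF4 arm genes with large differences in females were Atf3 (replicate 2 above replicate 1 by 2.34 on the log2 scale, edgeR adjusted p = 1.0e-10) and Sesn2, a stress-induced leucine sensor (1.97, edgeR adjusted p = 2.5e-12). In males Atf4 was lower in replicate 3 than in replicate 1 by a log2 difference of -0.53 (edgeR adjusted p = 6.5e-08), and Hspa5 by -0.50 (edgeR adjusted p = 2.9e-07). Slc7a5 differed in females (1.03 between replicates 2 and 1, edgeR adjusted p = 5.7e-17) but gave an adjusted p of 0.933 in males, where replicates 2 and 3 lay at -0.03 from replicate 1. The difference between the sexes in this was not tested.

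Other measures moved with the number. The 5 vascular markers summed to 8.08 to 19.6 CPM in female replicate 1, 26.6 to 37.2 in female replicate 2 and 15.2 to 37.1 in female replicate 3, most of it Rgs5, with Cldn5 at 0 in 34 of 66 libraries. In males they summed to 17.2 to 32.7 in replicate 1, 17.3 to 26.4 in replicate 2 and 9.60 to 20.8 in replicate 3. The astrocyte markers summed to 385 to 633 CPM in male replicate 3, against 233 to 422 and 257 to 422 in male replicates 1 and 2, and to 302 to 578, 269 to 516 and 279 to 441 in female replicates 1, 2 and 3. Median total counts were 25952946, 33644026 and 35738449 in female replicates 1, 2 and 3, and 32047435, 30018284 and 33670665 in male. The part of these in the differences between numbers was not tested. The labels do not say what a number stands for beyond wells.

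Genes of the same pathways outside the module were counted in 3 lists. Of 20 genes for sensors, eIF2 kinases and eIF2 control, all tested, Ash1l shRNA lowered 2, Chd8 changed 4 (3 higher), Med13l changed 8 (7 higher) and Setd5 raised 1, with 0 in the other 5. Of all genes 6.16%, 22.3%, 24.1% and 5.30% passed in these comparisons. Mbtps2, the site 2 protease that releases ATF6, fell by 0.88 with Ash1l shRNA (SE 0.10, edgeR adjusted p = 3.5e-09), and Dele1, which relays mitochondrial stress to the eIF2 kinase HRI, by 0.77 (SE 0.09, edgeR adjusted p = 1.1e-08). With Med13l shRNA Dele1 rose by 0.50 (SE 0.09, edgeR adjusted p = 2.9e-05). Subunits of eIF2B, the exchange factor that phosphorylated eIF2 inhibits, rose as well: Eif2b3 by 0.61 (SE 0.10, edgeR adjusted p = 1.2e-05) and Eif2b2 by 0.56 (SE 0.09, edgeR adjusted p = 8.9e-06). Eif2b2 also rose with Chd8 shRNA, by 0.40 (SE 0.09, edgeR adjusted p = 9.8e-04). With Setd5 shRNA Eif2b3 rose by 0.37 (SE 0.10, edgeR adjusted p = 0.0250).

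Of 33 further ATF4-linked amino acid and tRNA synthetase genes, Ash1l shRNA lowered 2, Chd8 changed 7 (6 lower), Med13l changed 6 (5 lower), Dnmt3a lowered 1 and Setd5 raised 1, with 0 in the other 4. Of all genes 6.16%, 22.3%, 24.1%, 1.40% and 5.30% passed in these comparisons. Nars, the asparaginyl-tRNA synthetase, fell by 1.23 with Ash1l shRNA (SE 0.17, edgeR adjusted p = 1.1e-06). Nupr1, a stress-induced chromatin protein, fell by 1.62 with Chd8 shRNA (SE 0.34, edgeR adjusted p = 3.0e-04) and by 1.56 with Med13l shRNA (SE 0.35, edgeR adjusted p = 6.1e-04). Tars had the smallest adjusted p of this list with Med13l shRNA and rose by 0.44 (SE 0.08, edgeR adjusted p = 3.1e-05). Gpt2, the mitochondrial alanine aminotransferase, fell by 0.69 with Chd8 shRNA (SE 0.14, edgeR adjusted p = 1.4e-04). Shmt1, the cytosolic serine hydroxymethyltransferase, rose by 1.05 with Setd5 shRNA (SE 0.18, edgeR adjusted p = 1.5e-04).

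Of 39 further genes for ER folding, degradation and transport, Ash1l shRNA lowered 4, Chd8 changed 11 (7 lower), Med13l changed 3 (2 higher) and Setd5 raised 3, with 0 in the other 5. Of all genes 6.16%, 22.3%, 24.1% and 5.30% passed in these comparisons. Txndc5 had the smallest adjusted p of this list with Chd8 shRNA and fell by 0.61 (SE 0.08, edgeR adjusted p = 7.1e-08). Canx, the membrane-bound lectin chaperone, fell by 0.52 with Ash1l shRNA (SE 0.12, edgeR adjusted p = 0.00308) and by 0.60 with Chd8 shRNA (SE 0.12, edgeR adjusted p = 1.1e-04). Ero1a, the oxidase that recharges disulphide isomerases, rose by 1.36 with Med13l shRNA (SE 0.14, edgeR adjusted p = 7.7e-11), the comparison in which Ddit4 rose, and fell by 0.57 with Chd8 shRNA (SE 0.14, edgeR adjusted p = 0.00132). Of the first list 14 of 20, of the second 16 of 33 and of the third 22 of 39 differed among the 9 shRNA groups, against 58.4% of all genes. Summed neuron markers were 3558 to 4235 CPM with Med13l shRNA and 4154 to 4845 with Chd8 shRNA, against 4756 to 5415 with nontargeting shRNA, with 1 of 5 called lower for Med13l, and 2 lower and 1 higher for Chd8. The 5 inhibitory neuron markers summed to 696 to 1311 CPM with Med13l and 917 to 1261 with Chd8 shRNA, against 1018 to 1567, with 2 lower in each. The 4 markers of dividing cells summed to 1.40 to 2.11 CPM with Med13l shRNA against 3.07 to 8.08, with 4 lower. The 4 fibroblast markers summed to 6.83 to 15 CPM with Chd8 and 13.3 to 32.7 with Med13l shRNA, against 16.1 to 49.0, with 2 and 1 lower. Their part in these values was not tested.

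The replicate block raised several of these counts for the targets whose numbers pair the libraries. For Chd8 it gave 8 of 20 in the first list (7 higher), 18 of 33 in the second (14 lower) and 17 of 39 in the third (13 lower), against 36.9% of all genes. For Setd5 it gave 3 (2 higher), 6 (3 higher) and 9 (5 higher), against 16.2%. For Dnmt3a it gave 0, 3 and 2, all lower, against 6.97%, and for Tbr1 1 (higher), 3 (2 higher) and 3 (1 higher), against 6.57%. For Kmt2c it gave 1 (lower), 0 and 1 (higher), against 2.97%, and for Mbd5 0, 0 and 2 (1 higher), against 3.32%.

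For Setd5 these lists were also counted without the 2 male libraries that go against their labels, an alternative chosen after seeing the data. Without the block, 2 of 20, 2 of 33 and 6 of 39 then passed, against 7.43% of all genes, of which 1, 1 and 3 were higher. Eif2b3 rose by 0.36 (SE 0.11, edgeR adjusted p = 0.0305) and Shmt1 by 1.06 (SE 0.19, edgeR adjusted p = 1.0e-04). With the block 6, 6 and 11 passed, against 20.3% of all genes, of which 2, 2 and 6 were higher. For Kdm6b, without the block, 0 passed in each list with or without these libraries.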

How the data were processed

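Libraries were prepared from polyadenylated RNA by a strand-keeping kit, per the labels' protocols. The authors deposited 1 table of whole-number read counts per gene for the series, with 48716 rows. STAR, featureCounts and the mm10 build are named in the submitters' processing notes; their versions, settings and annotation are not given in the sources used here, nor is the handling of reads shared with pseudogene copies or overlapping genes. Control columns are named Luc in the table and were taken as the only control hairpin in the labels, nontargeting. Of 72 columns, 6 were not used here. Rows without a symbol (18483, 0.690% to 1.41% of counts) were left out, and 149 rows that repeated a symbol were summed. Of deposited counts from 1 to 20, 26.7% were odd, against 49.1% from 1000 up, so halved counts were tried. Within groups, library pairs differed by more than sampling noise (chi-square per gene from 7.92 to 386).

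The tests used edgeR 4.0.16 under R 4.3.3 (filterByExpr, trimmed mean of M values, robust quasi-likelihood F test) over all 66 libraries with 1 mean for each of 22 groups. Benjamini-Hochberg adjustment ran over 16145 genes, with a threshold of 0.05. SE were derived from the test statistic. CPM were computed with edgeR, and log2 CPM had a prior count of 2. The test was checked on simulated counts. Counting error is larger for genes with few counts, and 0 counts allows up to 3 counts.

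Pairing was taken where each of the 6 correlations over genes, between the deviations of like-numbered shRNA and nontargeting libraries within a sex, exceeded 0.1. It did for 6 targets. Exceptions were Ash1l (0.0545 and -0.108 in males), Kdm6b (0.0354 in males, 0.0362 in females) and Med13l (0.0190 in males). The block gives each number within a sex its own term. The members and lists were chosen with earlier results of these data known. All 37 members were counted. Values are given for members that passed in at least 1 comparison, and for Atf4, Ddit3, Hspa5 and Xbp1 whatever their values. Up to 3 called genes are named per other list and comparison, not always those with the smallest adjusted p. Alternatives were DESeq2 1.42.0, its size factors, no filter, halved counts, only the groups compared, single sexes, the no virus control and leaving out libraries. Motifs were searched with Python 3.11.15, and plots drawn with matplotlib 3.10.9.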

Additional observations from a re-analysis of the deposited data

How the results depend on the processing

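No member call made without the replicate number in the model changed direction under any alternative run for it. Other calls named here were not put through all of these alternatives. With the replicate block, members called were 22 for Ash1l (against 17.2% of all genes), 21 for Chd8, 2 for Dnmt3a, 1 for Kdm6b (7.87%), 15 for Med13l (41.5%), 5 for Setd5, 3 for Tbr1 and 35 among the 9 shRNA groups (79.8%). By the rule that asks for both sexes, the numbers do not pair the libraries for Ash1l, Kdm6b and Med13l. With the block the share of members was above that of all genes for Ash1l and below it for Kdm6b and Med13l. For Ash1l and Med13l only male correlations failed it. Their female correlations were 0.229 to 0.589 and 0.226 to 0.655. The block changed no other count of members by more than 1.5 times. With the block and without the 2 male libraries against their labels, a combination chosen after seeing the data, counts were 6 for Setd5 and 2 for Kdm6b. Of all genes 20.3% and 8.28% passed there. The counts that follow are given here without the share of all genes in each alternative, so they describe the members alone. DESeq2 gave 6 for Ash1l and 1 for Dnmt3a, halved counts 4 for Ash1l, and no filter 2 for Med13l. Without the 2 male libraries against their labels, counts were 1 for Dnmt3a, 2 for Med13l and 1 for Setd5. With no virus as the control they were 1 for Dnmt3a, 2 for Med13l and 1 for Setd5. Males alone gave 1 for Ash1l, 3 for Chd8, 1 for Med13l and 7 among the shRNA groups. Females alone gave 0, 3, 1 and 6, and both have 3 libraries per group. Leaving out 1 library gave 1 to 5 for Ash1l, 4 to 9 for Chd8, 0 to 1 for Dnmt3a, Setd5 and Tbr1, 0 to 2 for Kdm6b, 1 to 5 for Med13l, 14 to 21 among the shRNA groups and 0 elsewhere.

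Calls of single members were lost for Atf5 and Slc7a5 with Med13l shRNA without the filter (adjusted p = 0.0563 and 0.0814), with no virus as the control (0.0673 and 0.0938) and without the 2 male libraries against their labels (0.0507 and 0.0569). Atf5 with Chd8 shRNA was lost without the filter (0.0603) and with no virus as the control (0.0616), and Sel1l and Slc7a5 with Med13l shRNA when only the groups compared were fitted (0.0710 and 0.0514). The causes were not tested. The counts by replicate number, whose alternatives were chosen after seeing the data, were 23 to 28 in males and 36 to 37 in females. Depth limits low members such as Cebpb, at 1.3 to 2.61 CPM with nontargeting shRNA.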
